A study of Mus musculus with 6 samples.

Results

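Voltage-gated calcium channel genes were followed in bulk RNA-seq of mouse pancreatic islets. The 10 genes were chosen by symbol as pore-forming and auxiliary subunits, and all 10 were found among the 55401 genes of the count table. They are Cacna1a, Cacna1c, Cacna1d, Cacna1e, Cacna1g and Cacna1h, which encode pores, and Cacnb2, Cacnb3, Cacna2d1 and Cacna2d2, which encode auxiliary subunits. The islets came from male C57BL/6 mice of about 20 weeks, and every mouse had both copies of Pdgfra floxed. The 3 control libraries were Pdx1-Cre-, and the 3 libraries labelled KO were Pdx1-Cre+. Pdx1-Cre is known to act throughout the pancreatic lineage, exocrine cells included, and Cre without floxed Pdgfra was not among the samples, so Cre and the deletion cannot be told apart. The titles number the mice but do not say that each library is 1 animal, so p-values describe the spread between these libraries.

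In beta cells, closure of ATP-sensitive potassium channels by glucose metabolism depolarises the membrane, voltage-gated calcium channels open, and the calcium that enters triggers release of insulin. A channel is built on a pore-forming alpha1 subunit that sets its class: L-type, P/Q-type, N-type, R-type or T-type. A cytoplasmic beta subunit and an extracellular alpha2delta subunit bring L-, P/Q-, N- and R-type pores to the membrane and tune their gating, whereas T-type pores work without them.

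Library totals ran from 15026094 to 25299689 counts. The labels give islet as tissue and beta cell as cell type, and name no sorting step. Each marker list for beta, alpha, delta, PP, acinar, duct, endothelial, fibroblast, smooth muscle, Schwann or neuronal, macrophage and lymphoid cells had 0 genes at 0 counts in all 6 libraries. A list of 10 beta-cell markers that includes Ins1 and Ins2 held 7.99 to 15.1% of counts in controls and 10.7 to 13.0% in KO. A list of 31 acinar genes held 25.9 to 46.1% and 19.6 to 35.8%, and 30 of its genes had negative log2 fold changes, with a median of -0.25. Over all 14212 tested genes 7414 were negative. The summed CPM of the acinar list overlapped between the groups, at 216000 to 556000 in controls and 187000 to 358000 in KO. A ribosomal RNA locus, CT010467.1, took 3.32 to 4.51% of counts in controls and 5.36, 12.6 and 18.5% in KO 1, 2 and 3, so KO 2 and KO 3 stood apart from the other libraries. The Pdgfra counts were 42, 88 and 116 for controls 1, 2 and 3, and 93, 25 and 125 for KO 1, 2 and 3. Its log2 fold change was -0.26 (SE 0.34, edgeR adjusted p = 0.869). Reads were summed over every exon of Pdgfra, and a transcript missing the floxed part would still be counted, so this gene gave no check of the labels.

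Of the 10 channel genes, 9 passed the filter on low counts and were tested, and 0 differed between the groups at an adjusted p under 0.05 by edgeR's quasi-likelihood method, fitted to 14212 genes. Over all genes 10 did, or 0.0704%. With DESeq2, 1 channel gene did, Cacna1c, and over all genes 48 did, with 14212 fitted. DESeq2 gave no adjusted p to Cacna2d3, another subunit gene, so its adjustment covered fewer genes than were fitted. The L-type pore gene Cacna1c came nearest, at 1.70-fold higher in KO (95% interval 1.37 to 2.12, edgeR adjusted p = 0.143), followed by the P/Q-type pore gene Cacna1a at 1.29-fold (1.07 to 1.55, adjusted p = 0.580). The other 7 lay between 0.848-fold and 1.20-fold, with every 95% interval including no change. At an unadjusted p under 0.05, 2 of the 9 were higher in KO and 0 lower, where 4.83% of all tested genes were higher. Bulk RNA cannot separate a different number of cells of a type from a different amount of RNA per cell.

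The levels of the genes spanned 3 orders of size when CPM (counts scaled to library size with TMM factors) were divided by exon length in kilobases. That length counts every annotated exon base, which need not be the length of the transcripts present. The order of levels and the shares given below depend on it. Cacna2d1 stood highest, at 9.39 ± 1.04 CPM per kilobase (SD over the 6 libraries), and its lowest library lay above the highest of any other gene of the set. Cacnb3 followed at 6.31 ± 0.623 and Cacna1d at 3.81 ± 0.624, each apart from its neighbours in every library. Cacna1a at 2.08 ± 0.36, Cacna1c at 1.76 ± 0.578 and Cacnb2 at 1.63 ± 0.16 had overlapping ranges. Cacna2d2 at 0.337 ± 0.0694 and Cacna1h at 0.336 ± 0.0839 overlapped too, below them came Cacna1g at 0.151 ± 0.0381, and last Cacna1e at 0.00591 ± 0.00308.

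**Figure D1:**
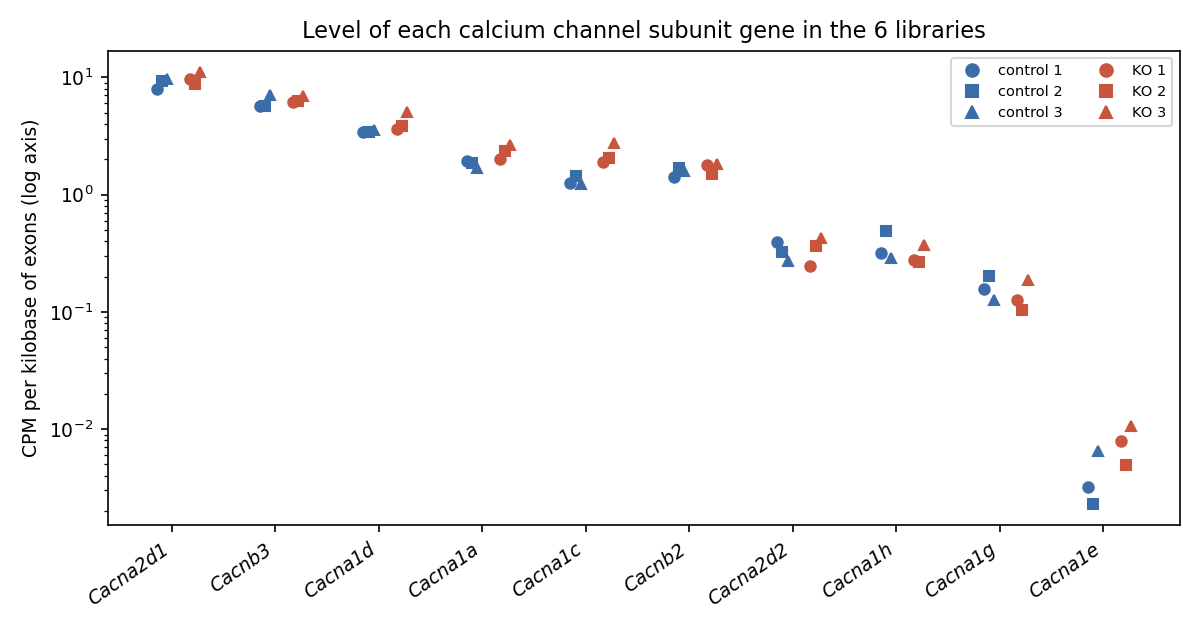
Level of the 10 genes in each library, as TMM-scaled CPM per kilobase of exons on a log axis, with control libraries in blue and KO libraries in red and 1 marker shape per replicate number. Cacna2d1 is highest and Cacna1e lowest in all 6 libraries, and in Cacna1c the 3 KO libraries sit above the 3 controls.

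Cacna1c encodes the pore of an L-type channel that carries much of the glucose-evoked calcium current in mouse beta cells, and it is also known from heart and smooth muscle. The gene (ENSMUSG00000051331.16) spans 118587240 to 119196890 on the minus strand of chromosome 6 (GRCm38), with 21864 exon bases, none of them shared with another gene of the table. The counts were 343, 536 and 819 in controls 1, 2 and 3 and 1040, 713 and 1568 in KO 1, 2 and 3. Scaled to library size they were 27.5, 31.2 and 27.0 CPM in controls and 41.7, 44.5 and 59.7 CPM in KO. The groups did not overlap, and KO 3 was well above the other KO libraries. The log2 fold change was 0.77 (SE 0.14, unadjusted p = 3.42e-04, edgeR adjusted p = 0.143).

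The smooth muscle and pericyte list of 10 genes, among them Acta2, Myh11 and Cspg4, summed to 154 to 203 CPM in controls and 161, 114 and 232 CPM in KO 1, 2 and 3. The sum of the beta-cell list ran from 96300 to 126000 CPM in controls and was 104000, 148000 and 113000 CPM in KO 1, 2 and 3. Both lists overlapped between the groups, and their part in the Cacna1c values was not tested.

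Cacna1c is known to be transcribed from more than 1 start, and RefSeq gives promoters at 3 start sites (GRCm38.p6, minus strand). The table sums reads from all of them, so the values above do not say which start they belong to. Promoters are printed for both L-type genes because these had the most reads of all pore genes in every library, and because their starts differ widely in CpG content. Each runs from 250 bases before the start to 50 after it, with CpG in capitals. Of the first pair below, both from Cacna1c, the upstream one (chr6:119196360-119196659) has 3 CpG and the middle one (chr6:119108446-119108745) 57. The last is from Cacna1d (chr14:30353437-30353736, minus strand), with 63.
Cacna1c upstream: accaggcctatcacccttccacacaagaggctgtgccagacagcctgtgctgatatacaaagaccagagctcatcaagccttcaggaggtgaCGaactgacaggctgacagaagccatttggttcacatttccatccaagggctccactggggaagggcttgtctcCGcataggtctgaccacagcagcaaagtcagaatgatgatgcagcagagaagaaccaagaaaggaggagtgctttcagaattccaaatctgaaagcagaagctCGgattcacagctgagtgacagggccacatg
Cacna1c middle: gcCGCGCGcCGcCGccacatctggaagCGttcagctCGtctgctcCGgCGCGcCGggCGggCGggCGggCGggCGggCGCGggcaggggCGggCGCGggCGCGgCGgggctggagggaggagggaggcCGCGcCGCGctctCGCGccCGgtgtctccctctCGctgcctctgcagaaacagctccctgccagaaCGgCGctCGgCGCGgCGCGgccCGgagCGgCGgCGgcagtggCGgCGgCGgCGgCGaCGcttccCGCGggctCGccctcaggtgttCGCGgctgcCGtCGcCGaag
Cacna1d: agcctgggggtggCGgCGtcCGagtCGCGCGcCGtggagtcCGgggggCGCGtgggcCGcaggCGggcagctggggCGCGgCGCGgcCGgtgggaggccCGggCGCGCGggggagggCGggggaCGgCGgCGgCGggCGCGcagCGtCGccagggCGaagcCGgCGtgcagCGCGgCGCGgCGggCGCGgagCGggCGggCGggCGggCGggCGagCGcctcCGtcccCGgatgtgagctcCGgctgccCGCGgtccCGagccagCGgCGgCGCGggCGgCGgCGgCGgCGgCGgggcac

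The third Cacna1c promoter (chr6:118757925-118758224) holds 7 CpG, and another Cacna1d promoter (chr14:30491107-30491406) holds 4. Over the 32851 promoters in the table the median is 7 and the 90th percentile 31, so the CpG-dense start of each L-type gene is above that percentile. RefSeq promoters were found for 7 of the 10 genes, 12 promoters in all. The palindromic cAMP response element TGACGTCA, searched on both strands, was in 0 of the 12 and in 1.79% of all promoters. The C/EBP-ATF element TGATGCAA was in 0 of 12 and 0.895% of all, and the E-box CACGTG in 0 of 12 and 7.15% of all.

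Cacna1d encodes the other L-type pore of islets, which opens at more negative voltages. The Cacna1d gene (ENSMUSG00000015968.18) lies on chromosome 14, 30039939 to 30491455, minus strand. It had 51.5, 52.0 and 54.1 CPM in controls 1, 2 and 3 and 55, 57.9 and 76.6 CPM in KO 1, 2 and 3. The lowest KO library lay just above the highest control, and KO 3 stood apart from the rest. The log2 fold change was 0.27 (SE 0.13, edgeR adjusted p = 0.706), and it was 0.10 (SE 0.08) without KO 3. About 4.85% of the exon bases of Cacna1d are shared with Chdh or an unnamed gene on the other strand, and counting by strand is not stated.

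Since both genes are read in the same library, their ratio does not depend on library scaling. Per exon length, Cacna1c over Cacna1d was 0.371, 0.417 and 0.347 in controls 1, 2 and 3 and 0.526, 0.534 and 0.541 in KO 1, 2 and 3. The KO ratios lay close together and above every control. As a share of the CPM per kilobase of all 10 pore genes of the family, the 6 described here with Cacna1b, Cacna1f, Cacna1i and Cacna1s, Cacna1c made up 17.1 ± 0.889% (SD) for the 3 controls and 22.6 ± 0.33% for the 3 KO libraries. The share of Cacna1d was 45.2 ± 2.27% and 42.4 ± 0.143%, and that of the T-type genes 7.33 ± 1.69% and 4.76 ± 0.426%. Shares of 1 total are tied to each other: that of Cacna1d was lower in KO while its CPM was higher. They are given as a description, since Cacna1c was singled out for its difference.

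**Figure D2:**
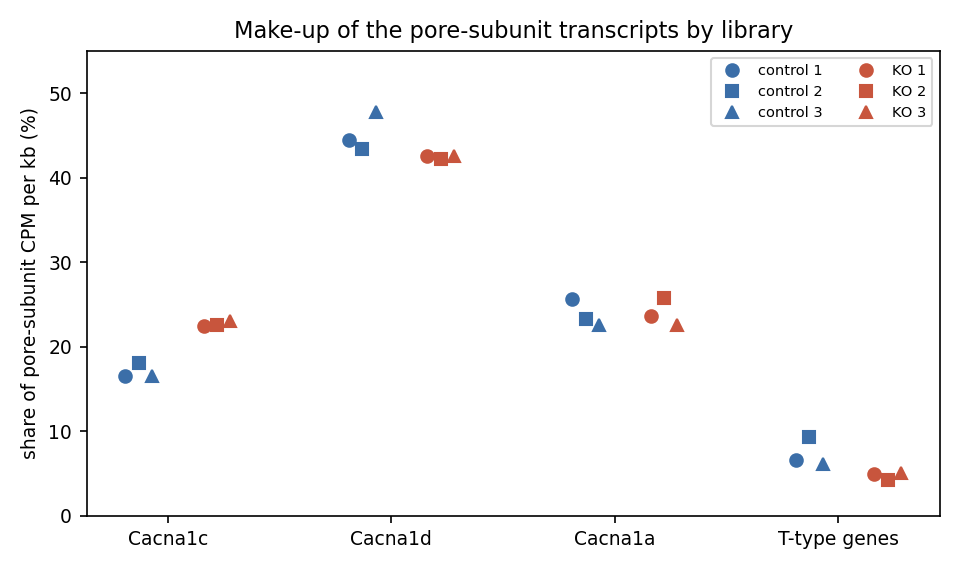
Share of each pore gene, or of the 3 T-type genes together, in the summed CPM per kilobase of all 10 pore genes of the family, in percent, with 1 point per library. The Cacna1c share is 16.5 to 18.1% in controls and 22.4 to 23.0% in KO, while the Cacna1a shares of the groups overlap.

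Cacna1a encodes the P/Q-type pore, a channel of nerve terminals that is also found in islet cells. The Cacna1a gene (ENSMUSG00000034656.18) lies on chromosome 8, 84338639 to 84640246, plus strand. It had 24.0, 22.7 and 20.6 CPM in controls 1, 2 and 3 and 24.8, 28.7 and 32.8 CPM in KO 1, 2 and 3. KO 1 was barely above control 1, and KO 3 was highest. The log2 fold change was 0.36 (SE 0.12, unadjusted p = 0.0131, edgeR adjusted p = 0.580). Its share of the pore CPM per kilobase was 23.8 ± 1.61% (SD) for the 3 controls and 24.0 ± 1.71% for the 3 KO libraries. Gm16183, on the other strand, shares 3.53% of its exon bases.

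Cacna1e encodes the R-type pore, which has been linked in mouse islets to the later phase of insulin release. The Cacna1e gene (ENSMUSG00000004110.17) lies on chromosome 1, 154390731 to 154884501, minus strand. Its counts were 1, 1 and 5 for controls 1, 2 and 3, and 5, 2 and 7 for KO 1, 2 and 3, too few to be tested. At this depth no statement on its difference between the groups can be made.

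The T-type pores open near the resting potential. The Cacna1h gene (ENSMUSG00000024112.16) lies on chromosome 17, 25374285 to 25433783, minus strand. Cacna1h had 3.13, 4.78 and 2.80 CPM in controls 1, 2 and 3 and 2.72, 2.62 and 3.61 CPM in KO 1, 2 and 3. The Cacna1g gene (ENSMUSG00000020866.17) lies on chromosome 11, 94408391 to 94474198, minus strand. Its levels were 1.60, 2.04 and 1.28 CPM in controls and 1.28, 1.06 and 1.90 CPM in KO. Both genes were highest in control 2, the groups overlapped, and the log2 fold changes were -0.24 (SE 0.25) and -0.17 (SE 0.31), with edgeR adjusted p of 0.838 and 0.913. Without control 2 they were 0.03 and 0.02. These were the only tested genes of the set with negative values. Control 2 also had the highest sum of the fibroblast list of all 6 libraries, 280 CPM where the others had 42.4 to 215. The same held for the macrophage list, with 104 CPM where the others had 80.9 to 96.3. All other cell type lists were highest in another library. The smooth muscle and pericyte list had 203 CPM in control 2 and 232 CPM in KO 3. The endothelial list had 481 and 537 CPM in these libraries, and the Schwann or neuronal list 50.3 and 56.7 CPM. The part of any cell type in the T-type values was not tested.

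Of the beta subunit genes Cacnb2, with 13228 exon bases, and Cacnb3, with 4010, Cacnb3 was the more abundant per length. Loss of its protein is known to increase calcium oscillations and insulin release in mouse islets. The Cacnb3 gene (ENSMUSG00000003352.14) lies on chromosome 15, 98630840 to 98644529, plus strand. It had 22.7, 22.8 and 28.6 CPM in controls 1, 2 and 3 and 24.8, 25.0 and 27.9 CPM in KO 1, 2 and 3, and the log2 fold change between the groups was 0.06 (edgeR SE 0.11, adjusted p = 0.918). The Cacnb2 gene (ENSMUSG00000057914.15) lies on chromosome 2, 14603088 to 14987908, plus strand. Its protein assists L-type pores in heart and beta cells, and it had 18.8, 22.1 and 20.9 CPM in controls and 23.6, 20.0 and 24.3 CPM in KO. Its log2 fold change was 0.14 (SE 0.11, adjusted p = 0.794), and the groups overlapped in both genes. The 95% intervals were 0.872 to 1.25-fold for Cacnb3 and 0.928 to 1.30-fold for Cacnb2.

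Cacna2d1 encodes the alpha2delta subunit that binds gabapentin and raises the number of channels at the membrane. The Cacna2d1 gene (ENSMUSG00000040118.15) lies on chromosome 5, 15934691 to 16374511, plus strand. It had 98.6, 115 and 120 CPM in controls 1, 2 and 3 and 119, 109 and 137 CPM in KO 1, 2 and 3. The groups overlapped, with a fold of 1.09 (95% interval 0.906 to 1.32, edgeR adjusted p = 0.826). On the log2 scale this is 0.13, and it was 0.06 with the mean log2 CPM of the acinar genes as a covariate and 0.03 without KO 3. The Cacna2d2 gene (ENSMUSG00000010066.15) lies on chromosome 9, 107399612 to 107529343, plus strand. It was scarce, at 3.13, 2.56 and 2.17 CPM in controls and 1.96, 2.87 and 3.39 CPM in KO. Its fold of 1.06 had a wide interval, 0.710 to 1.59 (edgeR adjusted p = 0.948). Genes on the other strand share 7.32% of the exon bases of Cacnb2, 1.62% of Cacna1h and 1.03% of Cacna2d2.

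**Figure D3:**
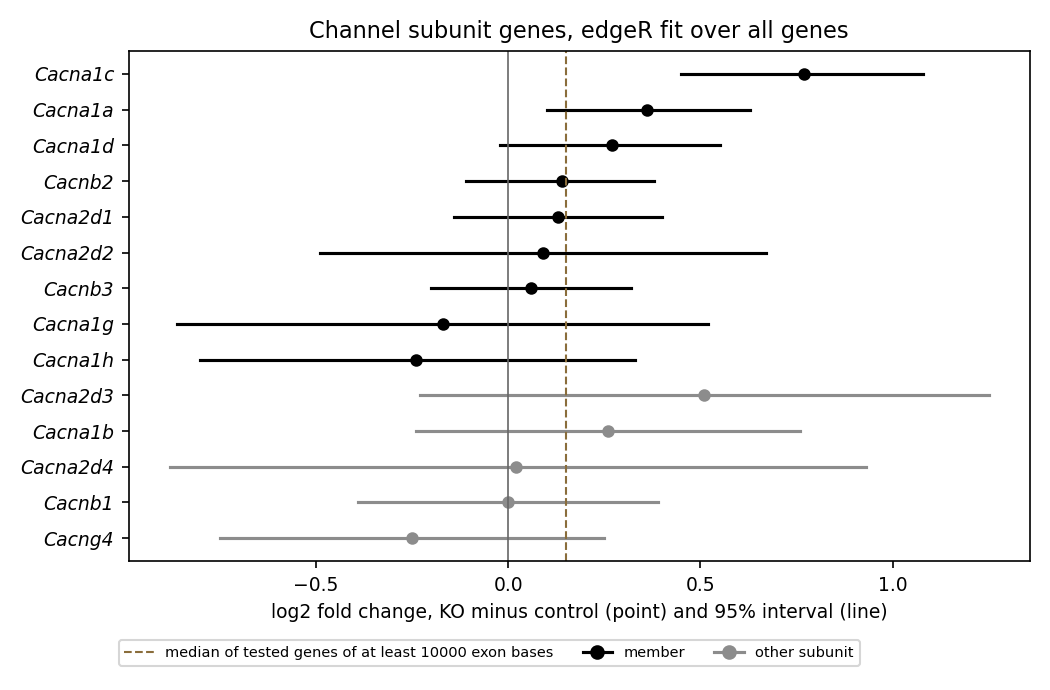
Log2 fold change of KO against control with its 95% interval for the 14 tested channel subunit genes, the 9 of the set in black and 5 other subunits in grey, with a dashed line at the median of tested genes with at least 10000 exon bases. The interval of Cacna1c, from 0.45 to 1.08, lies wholly above that line at 0.15. Cacna1c was singled out for its difference, and the line does not show the spread of the class, in which 17 genes had a larger value.

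Of 16 further subunit genes, 5 were tested and 0 passed. The N-type pore gene Cacna1b had 4.75 ± 0.23 CPM (SD) for the 3 controls and 5.63 ± 1.76 CPM for the 3 KO libraries, which is 0.26 on the log2 scale (edgeR SE 0.22, adjusted p = 0.809), and -0.01 without KO 3. Cacnb1 stood at 4.48 ± 0.497 and 4.48 ± 0.586 CPM, and Cacng4, of the gamma family, at 3.12 ± 0.455 and 2.60 ± 0.534 CPM. Cacna2d3 and Cacna2d4 were under 2 CPM in every library, with log2 fold changes of 0.51 (SE 0.33) and 0.02 (SE 0.40). Cacna2d3 had its 3 KO libraries above its 3 controls, as did Cacna1a, Cacna1c and Cacna1d, where 7.94% of all tested genes did. The other 11 had too few reads to be tested. Cacna1f had 2 to 14 counts a library, Cacna1i 2 to 13, Cacnb4 2 to 17, Cacng2 3 to 10, Cacng3 0 to 15, Cacng7 3 to 9, and Cacng5 and Cacng8 at most 2. Cacna1s, the pore of skeletal muscle, and Cacng6 had 0 counts in all 6 libraries, and Cacng1 had 1 count in all. A count of 0 in a library allows up to 3 counts.

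Long genes as a class had higher values in KO. Of the 1402 tested genes with at least 10000 exon bases, 77.7% had a positive log2 fold change and the median was 0.15, against 44.6% and -0.03 for the 12810 shorter genes. An unadjusted p under 0.05 with a higher level in KO occurred in 18.0% of the long genes, and all KO libraries lay above all controls in 22.0%. Of the 10 channel genes 7 are in this class and 6 of those were tested: 5 had positive values, 2 had an unadjusted p under 0.05 and 3 had groups that did not overlap. Over all 9 tested, 7 values were positive (47.8% of all tested genes) and the median was 0.13 (-0.01 over all). Positive values made up 83.3% of the 6 long channel genes, where 77.7% of all tested long genes were positive. The share over all 9 tested channel genes, which include shorter ones, was 77.8%.

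Among the long genes 17 (1.21%) had a larger log2 fold change than Cacna1c and 3 a smaller p, while for Cacna1a 207 (14.8%) and for Cacna1d 381 (27.2%) had a larger fold change. When only the long genes were fitted and normalised among themselves, a choice made after seeing the data, the log2 fold changes were 0.62 for Cacna1c (edgeR SE 0.09, adjusted p = 0.0579), 0.22 for Cacna1a (SE 0.10, adjusted p = 0.380), 0.11 for Cacna1d (SE 0.08) and -0.02 for Cacna2d1 (SE 0.08). Relative to the mean of the 6 libraries, the median long gene was at -0.10, -0.05 and -0.06 on the log2 scale in controls 1, 2 and 3 and at -0.01, -0.02 and 0.27 in KO 1, 2 and 3. Cacna1c was at -0.43, -0.24 and -0.45, and at 0.17, 0.27 and 0.69. The class median was near 0 in KO 1 and KO 2 and high in KO 3, and Cacna1c was above its own mean in each KO library and highest in KO 3. The part of the class shift in the Cacna1c values was not tested.

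**Figure D4:**
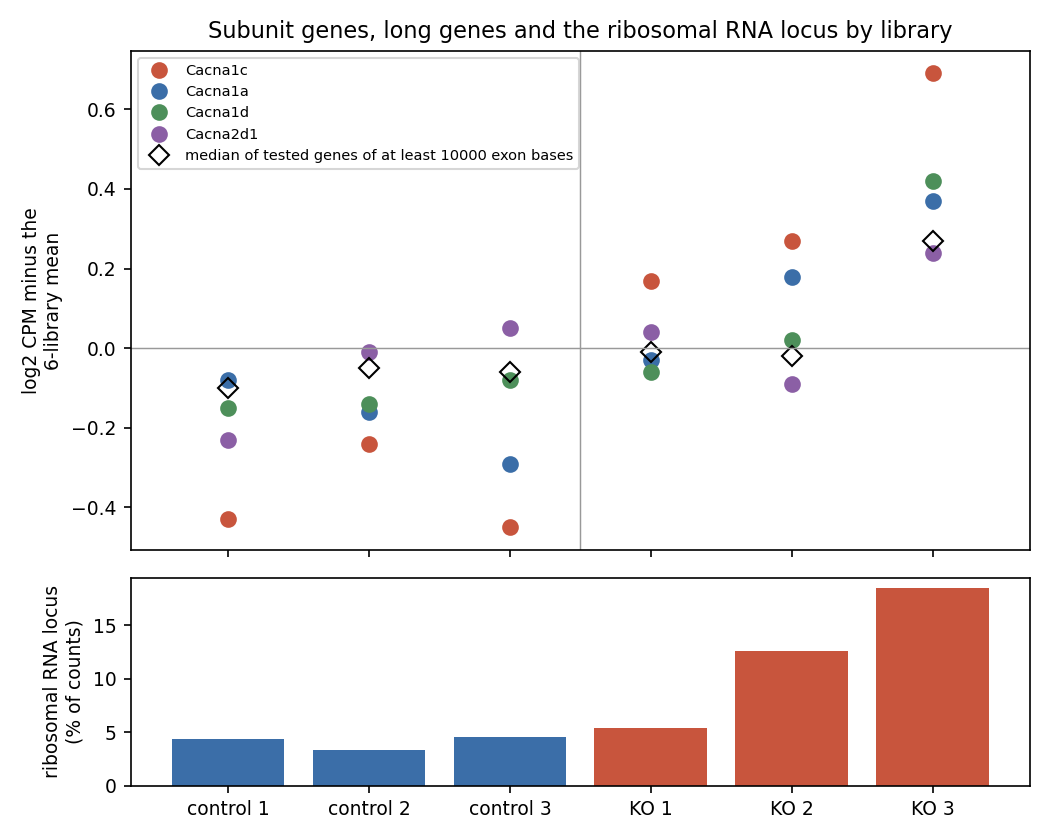
Upper panel, log2 CPM minus the 6-library mean for Cacna1c, Cacna1a, Cacna1d and Cacna2d1, with the median of tested genes of at least 10000 exon bases as open diamonds. Lower panel, share of counts at the ribosomal RNA locus in percent, which is 18.5% in KO 3, the library where all 4 genes and the median are highest.

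The ribosomal RNA share was also higher in KO, most of all in KO 2 and KO 3, so it and genotype cannot be fully told apart. With its log2 CPM as a covariate, the log2 fold change of Cacna1c was 0.50 (SE 0.21, unadjusted p = 0.0461, edgeR adjusted p = 1), that of Cacna1a 0.07 (SE 0.16) and that of Cacna1d -0.0028 (SE 0.19), and 4 of the 9 tested genes stayed positive. In KO 1 the locus took 5.36% of counts, above the 4.51% of the highest control, and had 52200 CPM, where the controls had 31400 to 52900 CPM. KO 1 alone against the 3 controls, a comparison added after seeing the data in which KO 1 is assumed to vary like the controls, gave Cacna1c 0.54 (SE 0.12, unadjusted p = 0.00280, adjusted p = 1), Cacna1a 0.15 (SE 0.13) and Cacna1d 0.06 (SE 0.10). Without KO 3, Cacna1c had 0.59 (SE 0.09, adjusted p = 0.153) and Cacna1a 0.26 (SE 0.11). Without the filter on low counts, the edgeR SE was 0.12 for Cacna1c and for Ahnak, Bsn and Kcnma1, described below. The reported fit gave 0.14, 0.43, 0.21 and 0.16, so the unfiltered p-values hold little of each gene's own spread. Cacna1c passed the threshold with DESeq2 (0.77, SE 0.17, adjusted p = 0.00185) and with edgeR when no filter on low counts was used (0.76, SE 0.12, adjusted p = 9.40e-08). Its adjusted p over all other alternatives ran from 0.0579 to 1.

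**Figure D5:**
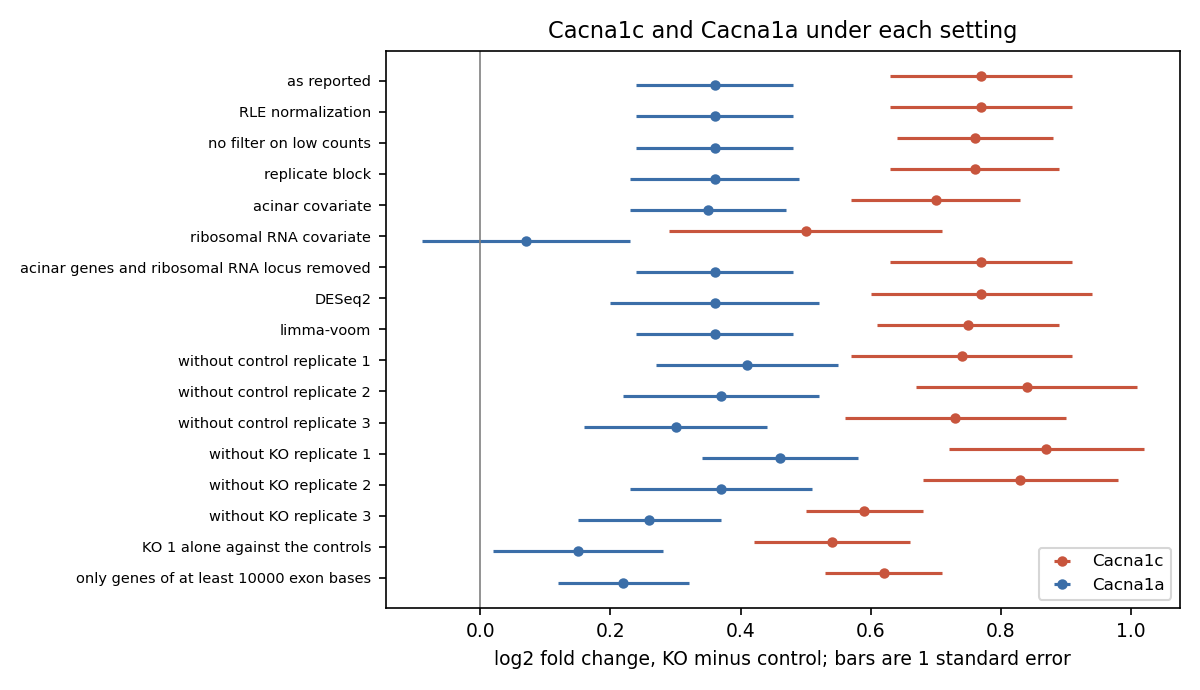
Log2 fold change of Cacna1c (red) and Cacna1a (blue) as reported and under each alternative, with bars of 1 standard error. Cacna1c stays between 0.50 and 0.87 throughout, and Cacna1a between 0.07 and 0.46.

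The patterns most like those of Cacna1c and Cacna1a were sought among 11669 tested genes that averaged 1 or more on the log2 CPM scale, by the root mean square distance of log2 CPM after centring over the 6 libraries. For Cacna1c the nearest were Galr2, a galanin receptor, at 0.075, Tet2, an enzyme that oxidises methylcytosine, at 0.085, and the zinc finger gene Zfp568 at 0.093. For Cacna1a they were the Polycomb-associated gene Asxl1 at 0.030, the latrophilin gene Adgrl1 at 0.043 and the kinase gene Dstyk at 0.047. The distances describe these 6 libraries only, and 0 of these genes passed the adjusted threshold.

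Genes for release-site proteins, several of which tether calcium channels near vesicles, mostly had positive values. Of 19 tested genes of 20, 16 were positive with a median of 0.17, 4 had an unadjusted p under 0.05, all of them higher, and 0 passed the adjusted threshold. Positive values made up 84.2% of this list, 47.8% of all tested genes and 77.7% of the long ones. An unadjusted p under 0.05 with a higher level was found for 4.83% of all tested genes and 18.0% of the long ones. The 4 genes were Rimbp2, which binds RIM proteins and channels (log2 fold change 0.38, SE 0.11, edgeR adjusted p = 0.537), the active zone scaffolds Pclo (0.69, SE 0.21) and Bsn (0.68, SE 0.21), and Rims2 (0.30, SE 0.10). Pclo had 137, 151 and 177 CPM in controls 1, 2 and 3 and 178, 238 and 335 CPM in KO 1, 2 and 3, so KO 1 barely exceeded control 3. With the ribosomal RNA covariate Pclo had 0.12 and Bsn -0.02, and KO 1 alone gave 0.20 and 0.09. Without KO 3 they were 0.43 and 0.39, and without the filter on low counts both passed the threshold (edgeR adjusted p = 7.77e-05 and 1.25e-05). Both had smaller SEs without the filter, 0.13 and 0.12, so those p-values hold little of their own spread. Among the long genes alone they had 0.53 and 0.51.

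Stores and pumps for calcium were divided. Of 20 tested genes of 25, 14 had positive values with a median of 0.03, 1 had an unadjusted p under 0.05 and 0 passed. Positive values made up 70.0% of this list, 47.8% of all tested genes and 77.7% of the long ones. Such a p with a higher level was found for 4.83% of all tested genes and 18.0% of the long ones. The 1 gene of the list was Itpr1, an inositol trisphosphate receptor that releases calcium from the endoplasmic reticulum. It had 74.6, 85.3 and 88.1 CPM in controls 1, 2 and 3 and 107, 90.3 and 132 CPM in KO 1, 2 and 3. Its log2 fold change was 0.41 (SE 0.14, edgeR adjusted p = 0.6), and KO 1 alone gave 0.37 (SE 0.13). Itpr3 had 0.22 (SE 0.12), the plasma membrane pump gene Atp2b2 0.23 (SE 0.15) and the sodium-calcium exchanger gene Slc8a1 0.26 (SE 0.17), all with overlapping groups. Without KO 3 these were 0.07, 0.08 and 0.01, and Itpr1 was 0.26, which was also its value among the long genes alone. With the acinar covariate Slc8a1 was 0.13.

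Genes of proteins that regulate the channels were near 0. Of 13 tested genes of 18, 6 were positive and 7 negative, the median was -0.03, and 0 had an unadjusted p under 0.05. Over all tested genes 47.8% were positive, the median was -0.01, and 4.83% had such a p with a higher level. Cabp1, a calmodulin-like protein that binds L-type and P/Q-type pores, had -0.25 (SE 0.14, edgeR adjusted p = 0.730), and Gem, a small GTPase that inhibits channels through the beta subunit, had 0.25 (SE 0.19). Prkar2b, a regulatory subunit of protein kinase A, had -0.08 (SE 0.10). The large scaffold gene Ahnak had 0.54 (SE 0.43), a value that rested on KO 3, which had 105 CPM against 24.5 to 48.5 CPM in the other 5 libraries, and it was -0.26 (SE 0.22) without that library. With the acinar covariate it was 0.13. Without the filter on low counts it passed the threshold (edgeR adjusted p = 0.00145), but with an SE of 0.12, which leaves out most of its spread between libraries.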

How the data were processed

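Per the submitters' processing notes, the authors used STAR 2.7.9 and featureCounts 2.0.0 with GRCm38.p6 and mm10, and deposited raw read counts per gene for 6 libraries with each gene's exon length. For overlapping or antisense genes the counts are uncertain: strand setting, annotation release and handling of multi-mapped reads were not given in the sources used here. Symbols were found for 55141 of 55401 identifiers, and the rest made up no more than 0.00998% of any library. Groups and replicate numbers came from the titles. The column names of the 3 KO libraries end in a suffix the labels do not explain. No library was a copy of another (closest pair, chi-square 13.3 per degree of freedom).

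Genotype was the only term of a two-sided quasi-likelihood fit (glmQLFit, glmQLFTest) in edgeR 4.0.16 under R 4.3.3, scaled by TMM, on the 14212 genes kept by filterByExpr (minimum count 10, minimum total 15), with Benjamini-Hochberg adjustment over all of them and a threshold of 0.05. It was first tested on simulated data. The common biological coefficient of variation was 0.14. Levels are CPM with TMM factors. Log2 CPM used a prior count of 2. Between genes, levels were divided by exon length.

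The named genes were the 10 channel genes, every other channel subunit, the 4 genes with the smallest p in each of 4 pathway lists, and the 3 nearest patterns of each channel gene with an unadjusted p under 0.05. One gene that this rule names is not reported here. Members and lists were chosen with earlier results of these data known, so no list was tested. Alternatives were RLE normalization, no filter, leaving out each library, a block for the replicate number, DESeq2 1.42.0, limma-voom (limma 3.58.1), acinar and ribosomal RNA covariates, and removal of those genes. KO 1 alone and the long genes alone were added after seeing the data. Promoters came from RefSeq (GRCm38.p6). For edgeR, the SE is the size of the log2 fold change divided by the square root of the F statistic. The 95% intervals were built from this SE with the t distribution. They include the spread between libraries, whereas the limit given for a count of 0 covers counting error only. Figures were made with Python 3.11.15 and matplotlib 3.10.9.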

Additional observations from a re-analysis of the deposited data

How the results depend on the processing

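For 16 alternatives, changes of over 1.5 times in a count were as follows. The number of channel genes past the threshold was 0, and 1 (Cacna1c) with DESeq2 and without the filter on low counts, where Bsn, Pclo, Ahnak, Kcnb2 and Kcnma1 passed too. The unfiltered p-values hold little of each gene's own spread, as said above, though the SE of Kcnb2 was 0.15 with and without the filter. The number over all genes was 10, and became 300 without the filter, 48 with DESeq2, 44 with the acinar covariate, 6 with limma-voom and 2 to 6 with 1 library left out. It was 0 with the ribosomal RNA covariate (214 genes at an unadjusted p under 0.05), with KO 1 alone (448) and among the long genes (190 of 1395), where fewer samples or genes enter the last pair. With the replicate block it was 36, Cacna1c had 0.76 (adjusted p = 0.0706), and 0 channel genes passed. Same-numbered libraries correlated at 0.16, -0.16 and 0.14 in their deviations and other pairs from -0.24 to 0.16, so the number is not shown to pair them. Positive values numbered 7 of 9 as reported, 4 of 9 with the ribosomal RNA covariate and 3 of 6 among the long genes. They were 5 of 9 with KO 1 alone, 5 of 9 without KO 3, 6 of 9 without control 3 and 9 of 9 without control 2.

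Signs changed as follows, the cause not tested. With the ribosomal RNA covariate Cacna1d had -0.0028, Cacnb3 -0.01, Cacna2d2 -0.58, Ahnak -0.10, Atp2b2 -0.21, Slc8a1 -0.05, Bsn -0.02 and Prkar2b 0.01. With KO 1 alone Cacnb3 had -0.01, Cacna2d2 -0.39 and Atp2b2 -0.15. Among the long genes Cacnb2 had -0.0046 and Cacna2d1 -0.02. Cacnb1, at 0.00035, had -0.0011 with RLE, -0.0044 without the filter, -0.0036 with the replicate block, -0.03 with the acinar covariate, -0.0012 with DESeq2 and -0.01 with limma-voom, and Cacna2d4 had -0.07 with the block and -0.08 with limma-voom. With 1 library left out, the ranges were -0.45 to 0.02 for Cacna1g, -0.41 to 0.03 for Cacna1h, -0.00036 to 0.19 for Cacnb3, -0.11 to 0.28 for Cacna2d2, -0.01 to 0.43 for Cacna1b, -0.07 to 0.10 for Cacnb1, -0.43 to 0.27 for Cacna2d4 and -0.26 to 0.89 for Ahnak.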

Other observations

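Potassium and sodium channels, which shape the action potentials that open calcium channels, were listed as well. Of 22 genes 20 were tested, 15 had positive values with a median log2 fold change of 0.11, 4 had an unadjusted p under 0.05 and 0 passed the adjusted threshold (edgeR). Over all tested genes 47.8% were positive and 4.83% had such a p with a higher level in KO, and among genes with at least 10000 exon bases 77.7% and 18.0%. Among them was Kcnb2, a delayed rectifier channel gene, with 8.02, 9.55 and 11 CPM in controls 1, 2 and 3 and 13.4, 12.4 and 16.4 CPM in KO 1, 2 and 3 (log2 fold change 0.55, SE 0.15, edgeR adjusted p = 0.515). Kcnma1, the large-conductance calcium-activated potassium channel, had 0.46 (SE 0.16), and the sodium channel gene Scn3a had 0.37 (SE 0.15). Without KO 3 the values were 0.42, 0.24 and 0.29. Without the filter on low counts, where p-values hold little of each gene's own spread, Kcnb2 and Kcnma1 passed the threshold (edgeR adjusted p = 0.0193 for each, SE 0.15 and 0.12). Kcnb2 had an SE of 0.15 in the reported fit too, so its SE does not show that loss of spread. In Kcnb2, Kcnma1 and Scn3a the KO libraries lay above the controls, as in 7.94% of all tested genes and 22.0% of the long ones. In Kcnma1 this was by little in KO 1, which had 52.8 CPM where the highest control had 51.9 CPM.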
